A study of Mus musculus with 8 samples.

Results

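A group of 5 neighbouring genes of mouse chromosome 16, Ciita, Dexi, Clec16a, Socs1 and Rmi2, was compared between the CD4+ CD8+ (double-positive) thymocytes of NOD/ShiLtJ (NOD) mice and those of C57BL/6J mice. They are the mouse counterparts of genes in the human chromosome 16 region that carries type 1 diabetes risk variants. The genes were chosen by name, and all 5 were found among the 53465 genes of the deposited count tables. Clec16a RNA stood 1.65-fold higher in NOD (95% interval 1.28 to 2.14), with an adjusted p of 0.0473 in edgeR that lay past the threshold of 0.05 in 7 of 14 alternatives. The other 4 members did not pass the test, and 3.68% of all tested genes passed.

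NOD mice, an inbred line, become diabetic on their own through autoimmunity; C57BL/6J is the inbred line they were set against. No treatment, engineered allele or transgene is named for either strain, and age, sex and any pooling of thymi are not stated in the sources used here. Each strain had 4 RNA-seq libraries. Libraries with the same strain and B number were added together, giving samples 1 and 2 of each strain, while a T number, not explained in the labels, separates the libraries of a sample. The cells were sorted live from thymus by flow cytometry on CD4 and CD8a, and total RNA went into a strand-marking, low-input total RNA kit. Whether a B number stands for a mouse is not stated, so p-values reflect the spread of these samples alone and that spread may be technical.

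The region holds immune genes with separate functions. CLEC16A is a membrane-associated protein that acts with the ubiquitin ligase NRDP1 (gene Rnf41) and the deubiquitinase USP8 in mitophagy, the removal of damaged mitochondria, and in endosome maturation. SOCS1 binds JAK kinases and damps signals from interferon and interleukin receptors, and it is a known brake on cytokine signalling in double-positive thymocytes. CIITA is the master activator of MHC class II genes, active in antigen-presenting cells. DEXI is a small protein that has been linked to the interferon response of pancreatic beta cells, and RMI2 is a subunit of the complex in which the helicase BLM and topoisomerase III alpha dissolve joined DNA strands. In humans, variants inside CLEC16A are associated with type 1 diabetes and have been linked to the level of DEXI RNA.

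On GRCm38 (GENCODE M21), the 5 genes lie within 412.9 kb. Ciita (ENSMUSG00000022504, plus strand) spans chr16:10480059-10528418. Dexi (ENSMUSG00000038055, minus strand) spans chr16:10502531-10543054 and overlaps Ciita over 25888 bp, of which 329 bp are exon in both. Clec16a (ENSMUSG00000068663, plus strand) spans chr16:10545339-10744878, with merged exons that cover 4.19% of its length. It points away from Dexi, and the annotated starts of the pair lie 2285 bp apart. Socs1 (ENSMUSG00000038037, minus strand) spans chr16:10782240-10785536, and Rmi2 (ENSMUSG00000037991, plus strand) spans chr16:10835059-10892966. Between Socs1 and Rmi2 lie the protamine and transition protein genes Prm1, Prm2, Prm3 and Tnp2, which serve sperm chromatin.

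Promoter sequences are shown for Dexi, Clec16a and Socs1, the members for which a sequence was available. Of the head-to-head pair Dexi and Clec16a, only Clec16a passed the test between the strains. RefSeq sequences (GRCm38.p6), 250 bases before to 50 after the start, were matched for 3 of the 5 members. Each is printed 5' to 3' along its gene's strand, and capitals mark matches on either strand to the 6 motifs named after the sequences. The windows lie at chr16:10543005-10543304 for Dexi (minus strand), chr16:10545089-10545388 for Clec16a (plus strand) and chr16:10785487-10785786 for Socs1 (minus strand).
Dexi: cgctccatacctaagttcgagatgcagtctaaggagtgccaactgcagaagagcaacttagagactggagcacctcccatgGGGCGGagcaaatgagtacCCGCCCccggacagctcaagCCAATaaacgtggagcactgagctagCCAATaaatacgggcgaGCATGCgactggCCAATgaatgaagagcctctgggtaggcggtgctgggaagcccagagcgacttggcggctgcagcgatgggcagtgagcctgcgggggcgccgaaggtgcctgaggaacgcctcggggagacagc
Clec16a: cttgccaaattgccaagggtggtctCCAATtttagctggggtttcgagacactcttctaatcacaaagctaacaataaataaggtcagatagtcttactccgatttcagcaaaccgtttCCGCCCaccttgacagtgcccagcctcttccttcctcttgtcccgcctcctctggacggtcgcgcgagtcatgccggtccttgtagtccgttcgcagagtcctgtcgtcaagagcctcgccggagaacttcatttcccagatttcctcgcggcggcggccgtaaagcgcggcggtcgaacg
Socs1: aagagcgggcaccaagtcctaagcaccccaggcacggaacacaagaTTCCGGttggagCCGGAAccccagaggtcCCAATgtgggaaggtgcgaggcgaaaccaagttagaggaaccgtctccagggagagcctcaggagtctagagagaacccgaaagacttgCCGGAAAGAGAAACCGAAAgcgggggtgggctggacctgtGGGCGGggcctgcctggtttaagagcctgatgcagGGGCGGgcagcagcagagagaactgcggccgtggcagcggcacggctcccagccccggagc
The Dexi window held 3 matches to CCAAT, the motif of the factor NF-Y, and the Clec16a window held 1, while 37.4% of the 32851 promoter windows of the table hold at least 1. GGGCGG, the motif of SP factors, was matched 2 times in Dexi, 1 time in Clec16a and 2 times in Socs1 (35.7% of all windows). CCAAT was also matched 1 time in Socs1. GCATGC, the core of the NRF1 motif, was matched 1 time in Dexi (7.93% of all windows). The Socs1 window held 2 matches to the motif of interferon regulatory factors (GAAA, any 2 bases, then GAAA again), at positions -83 and -77 from the start, in a run where they overlap each other and 1 of the 3 matches there to CCGGAA, the ETS motif. That interferon-type motif is found in 3.44% of all windows and CCGGAA in 14.9%. TTCNNNGAA, the STAT motif, had 0 matches in the 3 windows (8.3% of all windows). These matches describe the reference letters and do not show binding.

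The libraries held 23532823 to 30370599 reads in genes in NOD and 8526640 to 15701948 in C57BL/6J, so depth and strain cannot be told apart. Reads that the counting assigned to no feature made up 46.6% to 59.1% of the listed reads in NOD libraries and 40% to 53.9% in C57BL/6J libraries. Whether they lie in introns or between genes was not tested. Of 17291 tested genes, 637 passed the test (adjusted p under 0.05 in edgeR), which is 3.68%, with 1.91% higher and 1.78% lower in NOD, and 13.1% had an unadjusted p under 0.05. Levels are given in CPM, the read count of a gene scaled by the TMM-adjusted library size. The markers that define the double-positive stage were abundant. Cd4 averaged 1293 ± 66.4 CPM in NOD and 1251 ± 159 CPM in C57BL/6J (mean ± SD over the summed samples, n = 2 for each strain, as in all that follows), and Cd8a averaged 1660 ± 30.03 CPM in NOD and 1563 ± 120.1 CPM in C57BL/6J. The summed level of the 10 double-positive markers was 13505 to 15902 CPM in NOD libraries and 17188 to 21088 CPM in C57BL/6J libraries; Rag1, the recombinase subunit, is the most abundant of them, at 5902 ± 950.3 CPM in NOD and 8998 ± 796 CPM in C57BL/6J.

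Clec16a stood at 100.4, 101, 97.3 and 84.3 CPM in the 4 NOD libraries (the first pair from sample 1, the second from sample 2), against 55.6, 58.3, 61.7 and 59 CPM in the 4 C57BL/6J libraries. The strains did not overlap: the lowest NOD library lay 1.37-fold above the highest C57BL/6J library. Among all tested genes, 17% had libraries that did not overlap between the strains, 8.2% with NOD above and 8.84% with NOD below. The summed samples averaged 96.3 ± 7.15 CPM in NOD and 58.3 ± 3.3 CPM in C57BL/6J. The log2 fold change was 0.72 ± 0.16 (SE; 95% interval 0.35 to 1.09), with an adjusted p of 0.0473 in edgeR, just past the threshold of 0.05. None of the 637 genes that passed had a smaller absolute log2 fold change, and Clec16a ranked 616 among all tested genes by p. The direction was the same in all 14 alternatives run, with log2 fold changes of 0.65 to 0.79, but the call was not. Leaving out NOD sample 1 gave an adjusted p of 0.0701, while leaving out C57BL/6J sample 1 gave 0.384 and leaving out the other C57BL/6J sample gave 0.187. It was 0.0518 when genes needed at least 1 CPM in 2 or more samples, 0.173 with the T number 2 libraries alone and 0.058 with every sample thinned to the depth of the shallowest one, and 0.00823 without NOD sample 2.

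**Figure D1:**
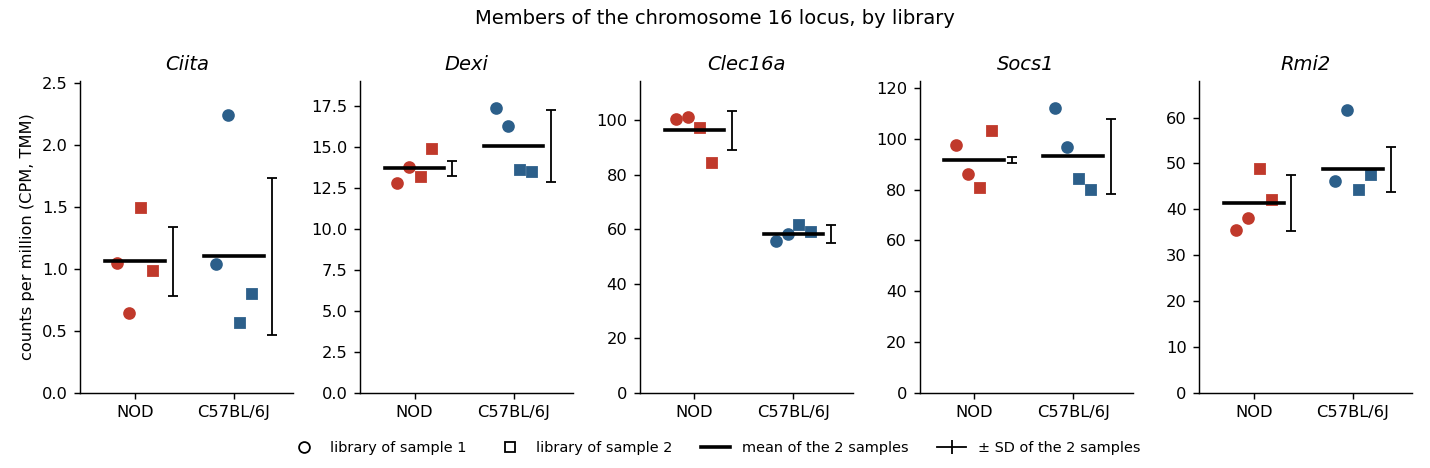
Level in CPM (vertical axis, from 0) of the 5 members in chromosome order, NOD left of C57BL/6J in each panel; points are libraries, circles from sample 1 and squares from sample 2, with the mean and SD of the 2 summed samples. The strains separate for Clec16a, with NOD libraries at 84.3 to 101 CPM and C57BL/6J libraries at 55.6 to 61.7 CPM, and overlap for the other 4 members.

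**Figure D2:**
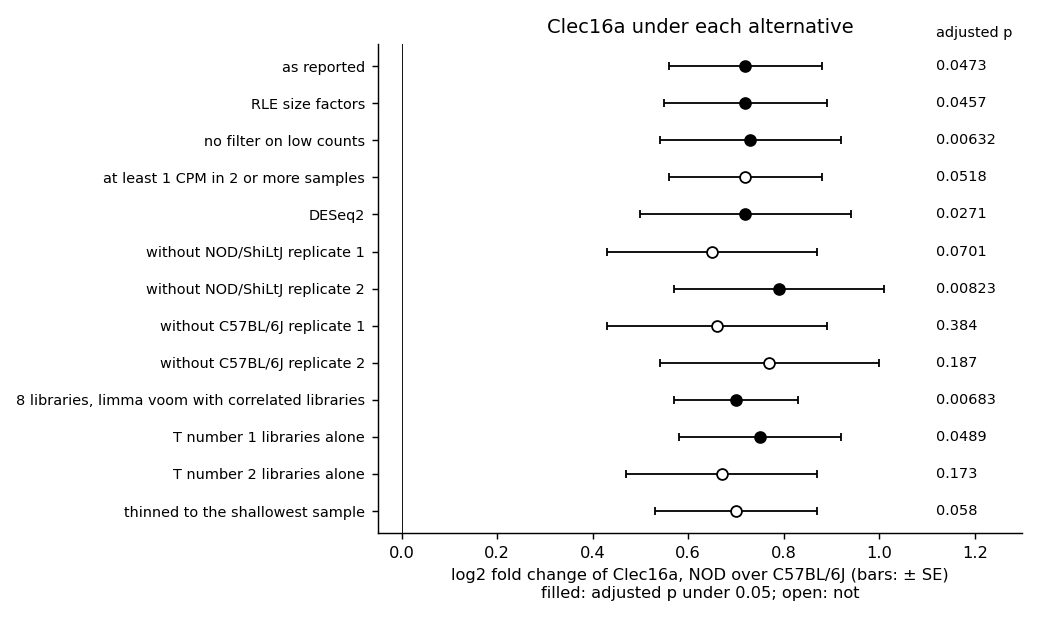
Log2 fold change of Clec16a, NOD over C57BL/6J (horizontal axis, bars ± SE), as reported and under 12 of the 14 alternatives (those with a replicate block are not drawn), with the adjusted p at the right; filled points have an adjusted p under 0.05. The estimates lie between 0.65 and 0.79, while the adjusted p lies on both sides of the threshold.

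Dexi, the divergent neighbour of Clec16a, stood at 12.8, 13.8, 13.2 and 14.9 CPM in the NOD libraries, against 17.4, 16.3, 13.6 and 13.5 CPM in the C57BL/6J libraries. The strains overlapped, and both high C57BL/6J values came from sample 1. The means were 13.7 ± 0.463 CPM in NOD and 15.1 ± 2.2 CPM in C57BL/6J, with a log2 fold change of -0.14 ± 0.24 (adjusted p = 0.894). The 95% interval of the fold ran from 0.617 to 1.33, so a difference as large as the low end of the Clec16a interval, 1.28, lies within it. Dexi rests on 315 to 399 reads per NOD library and 118 to 217 per C57BL/6J library. The strand setting used for counting is not given in the sources used here, so reads of the 329 bp shared with Ciita cannot be assigned with certainty, although Ciita itself had few reads.

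Because Dexi and Clec16a were read in the same libraries, their ratio does not depend on the scaling between libraries. The ratio of Clec16a to Dexi reads was 7.88, 7.33, 7.37 and 5.66 in the NOD libraries, against 3.2, 3.58, 4.54 and 4.38 in the C57BL/6J libraries. It averaged 7.06 ± 0.763 in NOD and 3.92 ± 0.791 in C57BL/6J, a 1.8-fold difference with no overlap between libraries. The ratio of Clec16a to Socs1 averaged 1.05 ± 0.0653 in NOD and 0.637 ± 0.137 in C57BL/6J, and that of Clec16a to Rmi2 averaged 2.37 ± 0.525 in NOD and 1.21 ± 0.19 in C57BL/6J. The libraries of the strains overlapped in neither ratio, though the lowest NOD value for Clec16a to Socs1, 0.821, lay close to the highest C57BL/6J value, 0.739. The ratio of Rmi2 to Socs1, which does not involve Clec16a, overlapped, at 0.364 to 0.605 in NOD libraries and 0.413 to 0.636 in C57BL/6J libraries. Clec16a by itself did not overlap between the strains, as for 17% of all tested genes, so its ratios are not separate results. No test was run on these ratios, and the share of other gene pairs without overlap was not computed. Clec16a made up 34.4% to 42.1% of the reads of the 5 members in NOD libraries and 24% to 30.2% in C57BL/6J libraries.

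**Figure D3:**
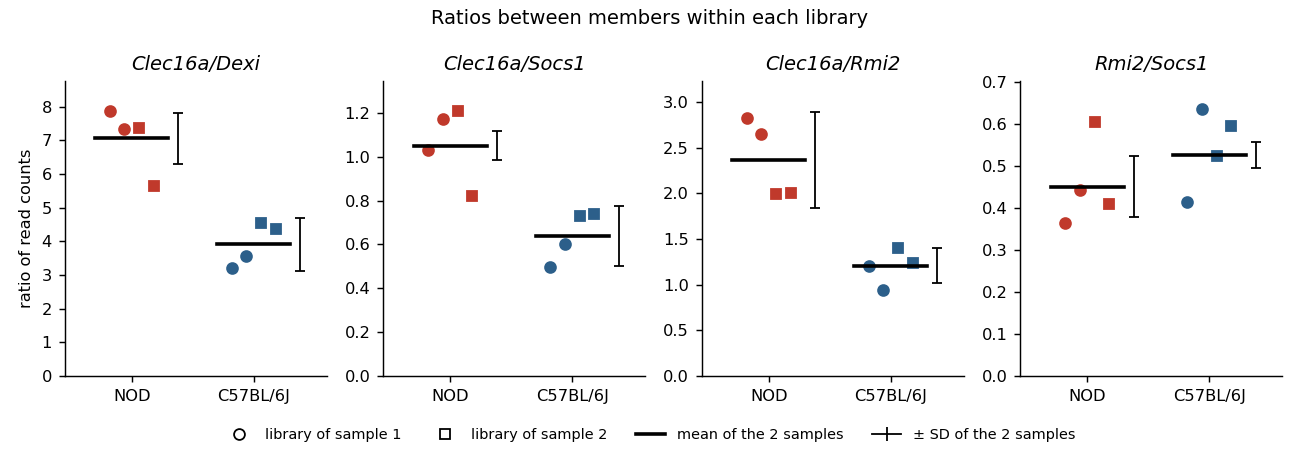
Ratio of read counts between members within each library (vertical axis, from 0), NOD left of C57BL/6J; points are libraries, circles from sample 1 and squares from sample 2, with the mean and SD of the 2 summed samples. The 3 ratios with Clec16a on top separate the strains, with Clec16a to Dexi at 5.66 to 7.88 in NOD and 3.2 to 4.54 in C57BL/6J, and Rmi2 to Socs1 overlaps.

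Gm15558, an antisense RNA annotated within Clec16a on the other strand, shares no exon bases with it. It stood at 16.3, 17.2, 14.6 and 12.2 CPM in the NOD libraries, against 10.7, 17.3, 11.8 and 11.1 CPM in the C57BL/6J libraries, and 1 C57BL/6J library lay above all NOD libraries. Its log2 fold change was 0.28 ± 0.25 (adjusted p = 0.770). The ratio of Clec16a to Gm15558 reads averaged 6.38 ± 0.517 in NOD and 4.71 ± 0.765 in C57BL/6J.

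Socs1 was the most abundant member per length and stood at 97.4, 86.2, 80.7 and 103 CPM in the NOD libraries, against 112, 96.9, 84.2 and 79.9 CPM in the C57BL/6J libraries. The strains overlapped across nearly their whole range. The means were 91.8 ± 1.1 CPM in NOD and 93.1 ± 14.9 CPM in C57BL/6J, a log2 fold change of -0.02 ± 0.17 (adjusted p = 0.979), and the 95% interval of 0.751-fold to 1.29-fold bounds the difference. Rmi2 stood at 35.5, 38.1, 48.8 and 42 CPM in the NOD libraries, against 46.1, 61.6, 44.1 and 47.5 CPM in the C57BL/6J libraries. One NOD library lay among the C57BL/6J libraries, and the means were 41.3 ± 6.13 CPM in NOD and 48.7 ± 4.93 CPM in C57BL/6J (log2 fold change -0.24 ± 0.19, adjusted p = 0.731, 95% interval 0.629-fold to 1.14-fold).

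Ciita was barely detected. It had 26, 15, 45 and 26 reads in the NOD libraries, against 13, 22, 9 and 7 reads in the C57BL/6J libraries, or 112 and 51 in all, which is 1.06 ± 0.278 CPM in NOD and 1.1 ± 0.635 CPM in C57BL/6J. The 95% interval of its fold, 0.412 to 2.28, shows that a change of 2-fold up or down was not detectable at this depth. The log2 fold change was -0.05 ± 0.55 (adjusted p = 0.985), and its sign turned in 7 of the 14 alternatives.

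Per kilobase of merged exon, the order of levels differed between the strains at 1 place. In NOD, Socs1 had 31.6 ± 0.379 CPM per kb, followed by Clec16a with 11.5 ± 0.855, Rmi2 with 9.19 ± 1.36, Dexi with 4.07 ± 0.138 and Ciita with 0.111 ± 0.0291. In C57BL/6J, Socs1 had 32 ± 5.12 CPM per kb, followed by Rmi2 with 10.8 ± 1.1, Clec16a with 6.97 ± 0.394, Dexi with 4.5 ± 0.657 and Ciita with 0.115 ± 0.0666. Clec16a had 12.1 and 10.9 CPM per kb in the NOD samples, above the 8.22 and 10.2 of Rmi2 there. In C57BL/6J, Clec16a had 6.69 and 7.25 CPM per kb, below the 11.6 and 10.1 of Rmi2. Merged exon length includes exons that thymocytes may not use, so these levels are approximate.

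Within 1000 kb on either side of the 5 genes, the tables listed 46 annotated genes, of which 22 were tested, with a median log2 fold change of 0.01 against 0.02 over all tested genes. Of these 22, 1 was higher (Clec16a) and 1 lower in NOD, beside 1.91% and 1.78% of all tested genes. Apart from Clec16a, none of the protein-coding genes of the window passed the edgeR test, and Clec16a was also the only one of the 15 tested with an unadjusted p under 0.05 there. Upstream, Nubp1, an iron-sulfur cluster assembly factor, stood at 44.8 ± 0.493 CPM in NOD and 45.2 ± 9.98 CPM in C57BL/6J (adjusted p = 0.988). Downstream, Snn stood at 29.9 ± 5.44 CPM in NOD and 36.1 ± 1.93 CPM in C57BL/6J, Txndc11 at 46.9 ± 8.5 CPM in NOD and 41.1 ± 2.17 CPM in C57BL/6J, and Zc3h7a, a zinc finger gene, at 130.2 ± 8.91 CPM in NOD and 103 ± 35.7 CPM in C57BL/6J. Gspt1, the translation termination factor eRF3a, stood at 181 ± 31.1 CPM in NOD and 199 ± 10.7 CPM in C57BL/6J, and Rsl1d1, a nucleolar protein gene, at 78.1 ± 4.58 CPM in NOD and 73.2 ± 5.62 CPM in C57BL/6J. Snx29, of the sorting nexin family, stood at 57.9 ± 19.7 CPM in NOD and 45.6 ± 0.427 CPM in C57BL/6J, and Cpped1 at 15.8 ± 1.63 CPM in NOD and 14.8 ± 0.658 CPM in C57BL/6J. The adjusted p-values of these 7 downstream genes were 0.661 to 0.924. Prm2 had 0 reads in every library, and Prm1, Prm3 and Tnp2 had at most 16 reads summed over a strain, so the sperm genes between Socs1 and Rmi2 were at or near 0.

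The gene of the window that was lower in NOD was Gm23935, a 57 bp stretch annotated as a microRNA gene in Zc3h7a. It stood at 14492, 16130, 13620 and 18420 CPM in the NOD libraries, against 53164, 44980, 33844 and 27712 CPM in the C57BL/6J libraries, without overlap (8.84% of all tested genes lay below in this way). The log2 fold change was -1.37 ± 0.27 (adjusted p = 0.0240), and the adjusted p was 0.0549 without C57BL/6J sample 1. This stretch took up 1.36% to 1.93% of the reads in genes in NOD libraries and 2.85% to 4.83% in C57BL/6J libraries. Its letters are identical to those of 2 other annotated genes on other chromosomes, so its reads cannot be assigned to this region with certainty.

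**Figure D4:**
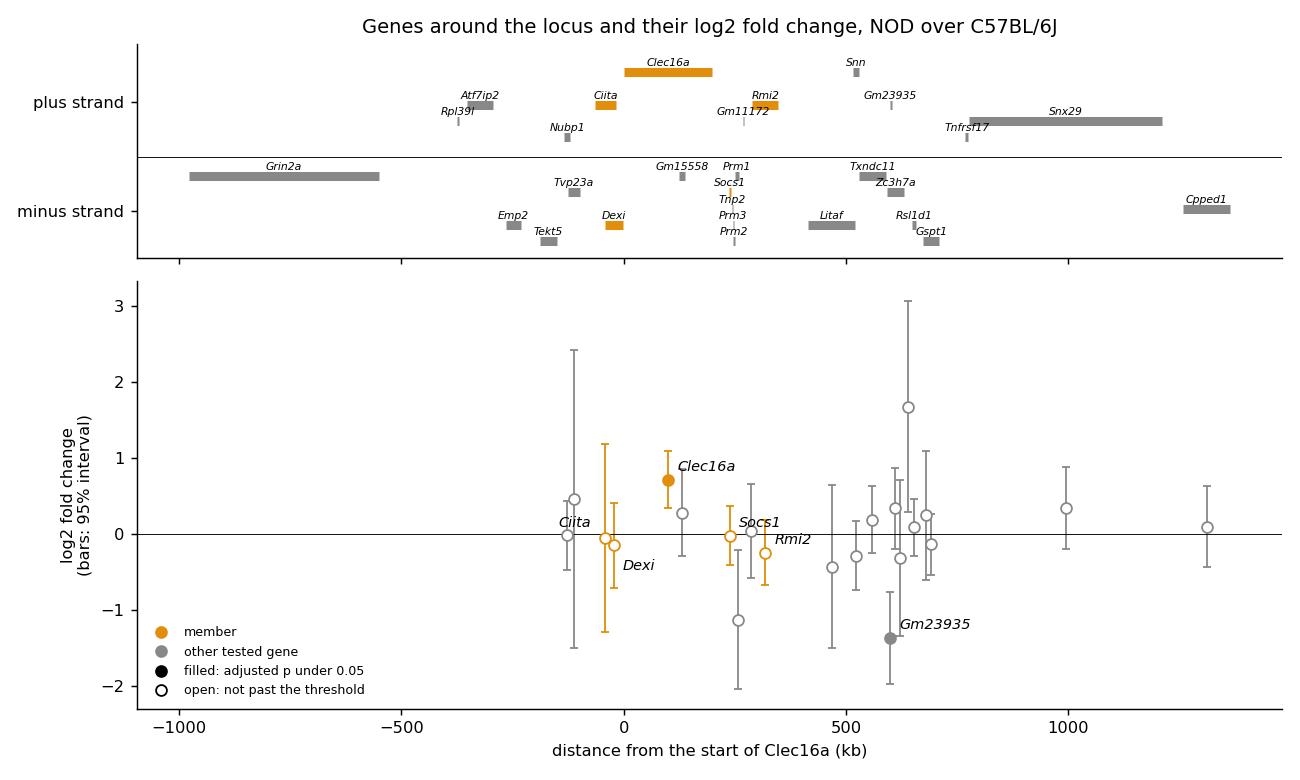
Upper panel, protein-coding genes, Gm15558 and Gm23935 by distance from the start of Clec16a (kb), members in orange; lower panel, log2 fold change (NOD over C57BL/6J, bars 95% interval) of the 22 tested genes at their midpoints, filled where the adjusted p was under 0.05. Clec16a at 0.72 and Gm23935 at -1.37 are filled, and the other 4 members lie between -0.24 and -0.02.

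Of the genes that act with CLEC16A, 1 passed the test, Pink1, in the direction opposite to Clec16a. Of 14 listed partners and mitophagy genes, 13 were tested, with a median log2 fold change of -0.04. Of these, 0 were higher and 1 lower in NOD, beside 1.91% and 1.78% of all tested genes. Pink1, the kinase that marks damaged mitochondria for removal, stood at 43.5, 38.1, 47.7 and 52.6 CPM in the NOD libraries, against 114, 102, 77.4 and 73.3 CPM in the C57BL/6J libraries. Every NOD library lay below every C57BL/6J library, as in 8.84% of all tested genes. The means were 45.6 ± 6.26 CPM in NOD and 91.4 ± 22 CPM in C57BL/6J, a log2 fold change of -1.0 ± 0.21 (adjusted p = 0.0324; 0.320 without C57BL/6J sample 1).

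Rnf41, which encodes the direct partner NRDP1, stood at 42.5 ± 2.12 CPM in NOD and 43.9 ± 1.37 CPM in C57BL/6J (log2 fold change -0.05 ± 0.17, adjusted p = 0.954, 95% interval -0.44 to 0.35). Usp8 stood at 89.95 ± 6.49 CPM in NOD and 98.4 ± 5.44 CPM in C57BL/6J (adjusted p = 0.851). The most abundant genes of the list were the autophagy receptors Tax1bp1, at 409.8 ± 0.121 CPM in NOD and 416 ± 12.4 CPM in C57BL/6J, and Nbr1, at 178 ± 3.82 CPM in NOD and 182 ± 5.41 CPM in C57BL/6J. None of 26 tested genes of the autophagy core passed the edgeR test, and 0 had an unadjusted p under 0.05, beside 13.1% of all tested genes (median 0.01). None of 14 endosome and lysosome tethering genes passed either, again with 0 at an unadjusted p under 0.05 and a median of -0.02.

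Among the genes around SOCS1, 1 of its relatives differed. Of 8 genes of the SOCS family, Socs1 among them, 7 were tested, with 1 higher and 0 lower in NOD and a median log2 fold change of 0.05. Among all tested genes, 1.91% were higher and 1.78% lower, and 8.2% had every NOD library above every C57BL/6J library. Socs5, a relative of SOCS1 known to restrain interleukin-4 and growth factor receptors, stood at 19.6, 21.2, 18.6 and 20.3 CPM in the NOD libraries, against 7.61, 6.71, 9 and 7.76 CPM in the C57BL/6J libraries. All NOD libraries lay above all C57BL/6J libraries, with a log2 fold change of 1.35 ± 0.25 (adjusted p = 0.0189; 0.185 and 0.0707 when C57BL/6J samples 1 and 2 were left out in turn). Socs4, the most abundant relative, stood at 98.2 ± 7.67 CPM in NOD and 95 ± 6.78 CPM in C57BL/6J (adjusted p = 0.950).

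The signalling partners that SOCS1 acts on did not pass the test. Of 11 kinases and STAT factors, 0 passed in edgeR and 1 had an unadjusted p under 0.05 (median -0.07). Jak1 stood at 526 ± 27 CPM in NOD and 571 ± 14.5 CPM in C57BL/6J, and Stat5b, which carries interleukin-2 and interleukin-7 signals, at 367 ± 28.3 CPM in NOD and 375 ± 38.2 CPM in C57BL/6J. Of 15 cytokine receptor chains of the pathway, 0 passed and 4 had an unadjusted p under 0.05, beside 13.1% of all tested genes (median 0.01). Ifngr1, the interferon gamma receptor chain, stood at 417 ± 3.96 CPM in NOD and 481 ± 163 CPM in C57BL/6J, and Il6st, the shared chain gp130, at 435 ± 7.76 CPM in NOD and 309 ± 22.7 CPM in C57BL/6J (log2 fold change 0.49 ± 0.16, adjusted p = 0.180). Of 20 interferon response genes, to which both SOCS1 and DEXI have been linked, 0 passed and 2 had an unadjusted p under 0.05 (median 0.12). Psmb8, an immunoproteasome subunit, stood at 141 ± 23.8 CPM in NOD and 192 ± 48.4 CPM in C57BL/6J (adjusted p = 0.432), and Tap1, the peptide transporter, at 74.9 ± 15 CPM in NOD and 88.3 ± 12.4 CPM in C57BL/6J (adjusted p = 0.742).

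The genes that CIITA acts on were low and did not pass the test. Of 10 class II genes, 9 were tested. In edgeR 0 passed, 3 had an unadjusted p under 0.05 (13.1% of all tested genes did), and the median log2 fold change was 0.65. In 5 of the 9, every NOD library lay above every C57BL/6J library, and in 0 below. Among all tested genes these shares were 8.2% and 8.84%. Cd74, which encodes the invariant chain, had 16.9, 17.5, 18.2 and 22.3 CPM in the NOD libraries, against 10.4, 8.64, 13.7 and 6.85 CPM in the C57BL/6J libraries. The libraries did not overlap, as in 17% of all tested genes, and the log2 fold change was 0.85 ± 0.25 (adjusted p = 0.12). H2-Oa, with a sign opposite to that median, stood at 7.92 ± 0.498 CPM in NOD and 10.9 ± 6.58 CPM in C57BL/6J (log2 fold change -0.46 ± 0.41, adjusted p = 0.770). None of the 7 DNA-binding partners that recruit CIITA passed in edgeR, and 0 had an unadjusted p under 0.05 (median -0.08), with Creb1 at 303 ± 25.6 CPM in NOD and 319 ± 66.5 CPM in C57BL/6J and Nfya at 143 ± 21.3 CPM in NOD and 138 ± 20.04 CPM in C57BL/6J.

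Antigen-presenting cells, which use CIITA, include dendritic cells, macrophages and B cells. Of all tested genes, 1.91% passed as higher in NOD, the share to set beside the markers that follow. The 8 dendritic cell markers summed to 3.9 to 5.28 CPM in NOD libraries and 1.32 to 3.42 CPM in C57BL/6J libraries. The 7 macrophage markers summed to 12.6 to 26.3 CPM in NOD libraries and 8.25 to 15.1 CPM in C57BL/6J libraries. One of them passed, Csf1r, the receptor of a macrophage growth factor, at 3.56 ± 0.366 CPM in NOD and 0.643 ± 0.278 CPM in C57BL/6J (log2 fold change 2.47 ± 0.48, adjusted p = 0.0233; 0.0717 and 0.146 without C57BL/6J samples 1 and 2). The 7 B cell markers summed to 248 to 377 CPM in NOD libraries and 338 to 411 CPM in C57BL/6J libraries, of which Ighm took 298 ± 56.5 CPM in NOD and 346 ± 15 CPM in C57BL/6J. The 7 thymic epithelial markers summed to 27.7 to 48.2 CPM in NOD libraries and 20.1 to 32.8 CPM in C57BL/6J libraries. Most of that sum was Ccl25, at 31.1 ± 9.07 CPM in NOD and 22.8 ± 6.06 CPM in C57BL/6J. Foxn1 was at 0.0596 ± 0.0343 CPM in NOD and 0.0442 ± 0.0625 CPM in C57BL/6J. The 5 red cell markers summed to 1.54 to 13.5 CPM in NOD libraries and 1.32 to 6.48 CPM in C57BL/6J libraries, and the 5 mature thymocyte markers to 111 to 124 CPM in NOD libraries and 145 to 156 CPM in C57BL/6J libraries. The part of such cells in the levels of Ciita and the class II genes was not tested, and in sorted bulk cells more cells of a type and more RNA per cell cannot be told apart.

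The complex of RMI2 and the related RecQ helicases did not pass the test as single genes. Of 13 genes, Rmi2 among them, 0 passed in edgeR and 2 had an unadjusted p under 0.05, beside 13.1% of all tested genes (median -0.07). Rpa1, a single-strand DNA binding subunit, stood at 164 ± 40.1 CPM in NOD and 168 ± 17.2 CPM in C57BL/6J, and Wrn, the helicase of Werner syndrome, at 72.8 ± 17.7 CPM in NOD and 107 ± 4.47 CPM in C57BL/6J (log2 fold change -0.56 ± 0.20, adjusted p = 0.218). The direct partners of RMI2 were Rmi1, at 16.2 ± 0.247 CPM in NOD and 15.3 ± 1.79 CPM in C57BL/6J, and Top3a, at 28.3 ± 3.4 CPM in NOD and 30.02 ± 2.42 CPM in C57BL/6J. Blm stood at 26.4 and 62 CPM in the NOD samples and at 51.6 and 51.5 CPM in the C57BL/6J samples (adjusted p = 0.901), so that the NOD samples lay on either side of the C57BL/6J samples. Rmi2 was also lower in NOD sample 1 than in NOD sample 2, at 37 and 45.6 CPM. So were Rpa1, at 136 and 192 CPM, and Wrn, at 60.4 and 85.3 CPM. Most of the list had this order, while Top3b (44.7 and 40.9 CPM) and Rpa3 (42.8 and 38.5 CPM) had the reverse. This spread limits what the test could detect here, and its cause was not tested.

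**Figure D5:**
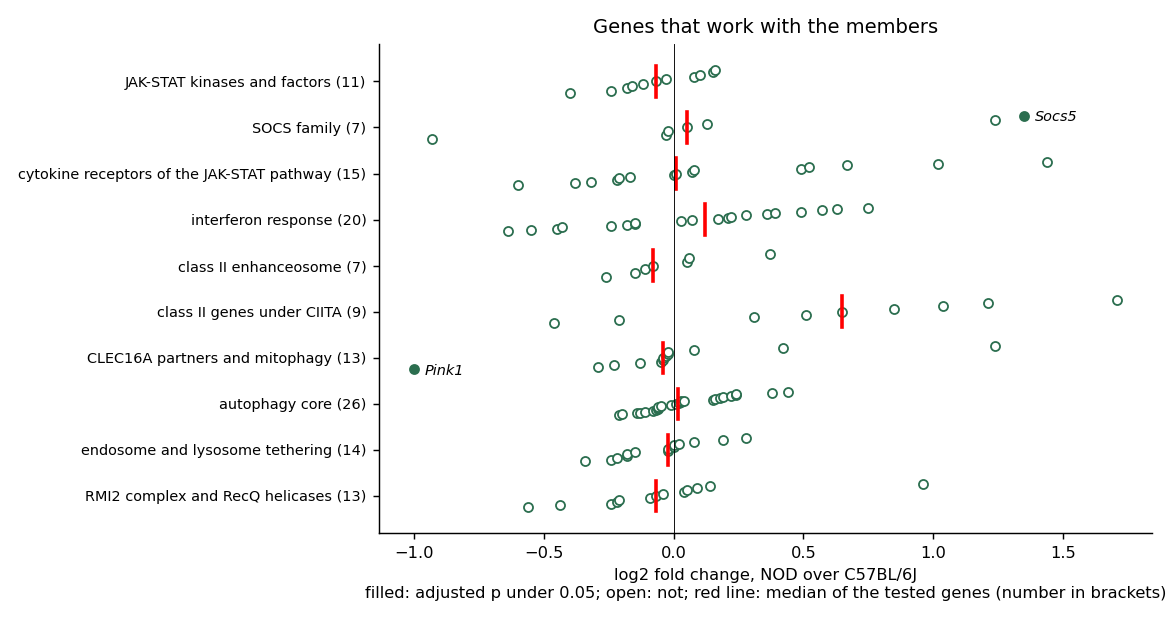
Log2 fold change, NOD over C57BL/6J (horizontal axis), of the tested genes of the 10 lists of genes that act with the members; filled points passed the test and red lines mark each list's median. Socs5 at 1.35 and Pink1 at -1.0 are the filled points, and the median of the class II genes, 0.65, lies farthest from 0.

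The protein-coding genes outside the window whose pattern over the 8 libraries was most like that of each member were found by the root mean square difference of centred log2 CPM, among 8945 genes with a mean of at least 5 CPM. For Clec16a these were Map3k20, a stress-activated kinase, Rtn4, the reticulon Nogo, and Msi2, an RNA-binding protein, at differences of 0.0627, 0.0773 and 0.0871 against a median of 0.415 over all candidates. Map3k20 stood at 43.4 ± 3.63 CPM in NOD and 26 ± 2.72 CPM in C57BL/6J (log2 fold change 0.74, adjusted p = 0.0796) and Msi2 at 343 ± 15.6 CPM in NOD and 197 ± 25 CPM in C57BL/6J (log2 fold change 0.80, adjusted p = 0.0349). For Dexi they were Ilk, Oard1 and Nifk, at differences of 0.029 to 0.0483, and for Socs1 they were Mgat2, Dctn2 and Psmd7, at 0.0486 to 0.0551. For Rmi2 they were Ap1s3, Cep70 and Ap3s2, at 0.0864 to 0.102. The 8 libraries come from 4 samples, so these likenesses describe the libraries and were not tested.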

How the data were processed

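The submitters' processing notes name STAR 2.5.0a, HTSeq 0.6.1 and the build GRCm38. The authors deposited raw counts per Ensembl gene for each library, without normalization. The sources used here do not state the annotation release, the strand setting or any filter. GRCm38 derives from C57BL/6J. Symbols came from GENCODE M21, which held 53360 of the 53465 identifiers. Reads assigned to no feature (46.6% to 59.1% in NOD libraries, 40% to 53.9% in C57BL/6J libraries) or matching several genes (0.694% to 2.38%) were left out.

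Libraries were summed by strain and B number, filtered with filterByExpr, scaled by TMM and compared in edgeR 4.0.16 (R 4.3.3) by its two-sided quasi-likelihood test, with robust dispersions, no covariate besides strain and Benjamini-Hochberg adjustment over 17291 genes. The summed samples held 47.24 M and 55.65 M reads in NOD and 23.81 M and 24.23 M in C57BL/6J. Libraries of 1 sample differed beyond sampling noise (chi-square per degree of freedom 2.96 to 61.7). The SE is the absolute log2 fold change over the square root of F. Alternatives used DESeq2 1.42.0 and limma 3.58.1, and the fit was checked on simulated data. Intervals come from the fit over samples.

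The members, lists and naming rule were chosen with earlier results of these data known. Named were all members, called or abundant (mean of at least 5 CPM) coding genes of the window, called and the 2 most abundant genes of each list, and the 3 most alike genes per member. Outside that rule, and chosen with their values seen, Rnf41, Usp8, Rmi1, Top3a and Blm were named for their roles, Gm15558, the sperm genes and the markers for place or cell type. Top3b and Rpa3 were likewise named for the order of their NOD samples.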

Additional observations from a re-analysis of the deposited data

How the results depend on the processing

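Clec16a kept its direction in all 14 alternatives and its call in 7. Its log2 fold change was 0.72 with at least 1 CPM in 2 or more samples, 0.67 with the T number 2 libraries alone, 0.70 with thinned samples and 0.65 to 0.79 when each sample was left out, and the adjusted p ranged from 0.00632 to 0.384 over the alternatives. No label states that a B number is shared between strains, so the numbers were not used to pair samples. The deviations of same-numbered samples across strains had a correlation of -0.12, but 2 samples per strain cannot settle whether they pair. With the number as a replicate block the log2 fold change of Clec16a was 0.72 (adjusted p = 0.114), 513 genes passed in all and 1 in the window. With crossed pairs, chosen after seeing the data, 768 genes passed. The count of called genes was 1188 without a filter on low counts, 342 with the T number 2 libraries alone, 937 with DESeq2 and 256 to 1389 when each sample was left out (256 and 359 when C57BL/6J samples 1 and 2 were left out in turn, 1389 when NOD sample 2 was). Of the window, 1 gene passed with at least 1 CPM in 2 or more samples, 0 with the T number 2 libraries alone, 1 with thinned samples and 0 to 2 when each sample was left out. The members that did not pass in the main fit passed in none of the alternatives. Ciita turned to 0.02 with either block, 0.07 with the 8 libraries in limma, 0.68 with the T number 1 libraries alone, 0.05 with thinned samples and -0.55 to 0.70 when each sample was left out. Dexi ranged from -0.29 to 0.01 and Socs1 from -0.18 to 0.15 when each sample was left out, and Socs1 was 0.11 with the T number 2 libraries alone. For Pink1, Socs5, Csf1r and Gm23935 the direction held in every alternative, and the call was lost in 3, 3, 4 and 2 of 14. A fit without 1 sample assumes that the lone sample of that strain varies like the others, and the cause of these shifts was not tested. Depth limits Ciita most, with 51 reads in C57BL/6J.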

Other observations

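Among the genes around the members, several stood apart without passing the test; they were chosen after their values were seen. Socs3, a relative of SOCS1 that restrains interleukin-6 signals, stood at 7.41, 7.64, 8.96 and 9.75 CPM in the NOD libraries, against 19.5, 19.8, 13.3 and 12.3 CPM in the C57BL/6J libraries (log2 fold change -0.93 ± 0.29, adjusted p = 0.158 in edgeR). Il7r, the interleukin-7 receptor chain that is switched off at the double-positive stage, stood at 17.4, 17.2, 9.19 and 6.91 CPM in NOD, against 2.72, 3.97, 6.3 and 5.93 CPM in C57BL/6J (1.44 ± 0.45, adjusted p = 0.168). Rpa3, a single-strand DNA binding subunit, stood at 40.7 ± 3.05 CPM in NOD and 21 ± 5.67 CPM in C57BL/6J (0.96 ± 0.23, adjusted p = 0.0586). H2-Aa, a class II chain, stood at 7.6 ± 0.754 CPM in NOD and 3.28 ± 0.11 CPM in C57BL/6J (1.21 ± 0.33, adjusted p = 0.0953).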
